A study of Mus musculus with 7 samples.

Results

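Mouse chromosome 2 carries 287 protein-coding olfactory receptor genes in the gene table of RefSeq for GRCm38.p6, the build also known as mm10. They were chosen by symbol and chromosome (Olfr or Or followed by a digit), with earlier results of these data known. They come from 1110 such genes and 21887 protein-coding genes on all placed chromosomes. Each was placed against the deposited list of lamin-associated domains (LADs), the stretches of chromatin that lie against the nuclear lamina under the nuclear envelope. The domains came from CUT&RUN for Lamin B1, a protein of the lamina, in wild-type mouse embryonic fibroblasts of lines named iMEF in the labels, which were derived independently from a single mouse colony. In CUT&RUN an antibody directs a nuclease to its target in intact chromatin, and the released DNA is sequenced. There were 2 Lamin B1 libraries of 500000 cells each, which the list combines. The other 5 libraries of the series (IgG with 2, H3K9me2 with 1 for each of its 2 antibodies and H3K14ac with 1) enter no value below. There were no treated or mutant groups, and the fibroblast identity was not checked against markers, since no expression was used.

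Olfactory receptors are G protein-coupled receptors with which neurons of the nasal epithelium detect odorants. They form the largest gene family of the mouse, arose mostly by tandem duplication and lie in long clusters, and a mature olfactory neuron expresses a single allele of a single receptor gene. In that neuron the silent receptor genes lie in compact heterochromatin away from the nuclear envelope, and loss of the lamin B receptor, which tethers chromatin to the envelope, accompanies this arrangement. Fibroblasts are outside that lineage, and their map shows where the clusters lie in a cell that is not an olfactory neuron.

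The list is a single merged set of 1437 domains, of which 71 lie on chromosome 2, where they cover 80.8 Mb or 45.1% of the span from the first to the last domain. It holds positions only. The depth is unknown, no value has a replicate error, and no statistical test over samples was possible, so the counts below are a description of this 1 list. Genes of a cluster share a domain and are not independent of each other. All domain lengths (100%) were multiples of 2.5 kb to within 125 bp, so borders were placed in steps of that size. How precisely a border was placed is not known, and it may be less exact than the step.

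Of the 287 receptor genes, 285 (99.3%) had their midpoint in a LAD. The same rule placed 24.6% of the 21130 protein-coding genes within the chromosome spans in a LAD, 27.8% of the 1782 on chromosome 2, and 14% of the 1495 genes of chromosome 2 that are not olfactory receptors. The receptor genes fell into 3 clusters, in which neighbouring members lay at most 1 Mb apart, and each cluster was held by a single domain. Thus 3 of the 71 LADs of chromosome 2, with 10.2% of its LAD bases, contained 296 of the 495 chromosome 2 genes found in LADs (59.8%), and the receptor genes alone made up 57.6% of the 495. Only Olfr368 and Olfr1274 lay outside, each as the last gene at the high-coordinate end of its cluster. No member was cut by a border, so both gene ends, the whole gene and any overlap gave the same 285 genes, while over all protein-coding genes 22.5% were wholly inside 1 LAD and 26% overlapped a LAD.

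To show what lies before these end genes, the 250 bases ahead of the annotated start are given for both outside members, for the nearest member inside the same borders (Olfr367-ps and Olfr1565), and for Olfr1138, the member deepest inside a domain. The sequences are from RefSeq (GRCm38.p6), 5′ to 3′ on the strand of the gene, and capitals mark TAATTA, the core of sites bound by homeodomain proteins such as Lhx2.
Olfr368 (chr2:37331499-37331748, plus strand, outside): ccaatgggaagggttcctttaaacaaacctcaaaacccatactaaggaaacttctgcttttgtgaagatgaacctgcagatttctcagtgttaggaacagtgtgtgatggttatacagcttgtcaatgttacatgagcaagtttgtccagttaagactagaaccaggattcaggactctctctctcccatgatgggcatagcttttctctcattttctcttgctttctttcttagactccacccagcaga
Olfr367-ps (chr2:37266701-37266950, plus strand, inside): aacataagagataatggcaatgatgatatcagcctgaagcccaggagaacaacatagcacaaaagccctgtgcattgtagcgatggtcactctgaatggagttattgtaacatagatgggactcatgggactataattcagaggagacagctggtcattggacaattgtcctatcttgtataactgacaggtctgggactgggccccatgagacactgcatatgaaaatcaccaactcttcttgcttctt
Olfr1274 (chr2:90400390-90400639, plus strand, outside): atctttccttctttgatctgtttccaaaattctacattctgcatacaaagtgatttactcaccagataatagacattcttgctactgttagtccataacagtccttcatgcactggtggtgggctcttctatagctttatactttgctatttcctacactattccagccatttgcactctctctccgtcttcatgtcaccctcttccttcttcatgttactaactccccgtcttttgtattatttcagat
Olfr1565 (chr2:90321972-90322221, plus strand, inside): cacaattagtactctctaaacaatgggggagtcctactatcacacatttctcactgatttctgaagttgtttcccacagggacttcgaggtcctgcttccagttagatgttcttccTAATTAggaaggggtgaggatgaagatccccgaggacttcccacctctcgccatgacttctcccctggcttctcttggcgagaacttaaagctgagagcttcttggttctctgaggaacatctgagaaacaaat
Olfr1138 (chr2:87738323-87738572, minus strand, deepest): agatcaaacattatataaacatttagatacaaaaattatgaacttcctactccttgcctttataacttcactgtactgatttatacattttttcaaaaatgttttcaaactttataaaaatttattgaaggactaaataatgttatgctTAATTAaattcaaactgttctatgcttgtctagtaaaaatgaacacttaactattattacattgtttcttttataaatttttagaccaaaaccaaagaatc
The capitals occur in Olfr1565, where the motif begins 134 bases before the annotated start, and in Olfr1138, where it begins 101 bases before it. In Olfr368 and Olfr1138 the annotated start is an ATG, whereas in Olfr367-ps, Olfr1274 and Olfr1565 it is not. Olfr367-ps has a pseudogene symbol but is listed as protein-coding, and it was counted as a member on that ground.

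The first cluster (chromosome 2, 36376778 to 37332732, mm10) held 28 receptor genes over 956.0 kb, from Olfr338 to Olfr368. Its LAD ran from 36302297 to 37329792, a length of 1027 kb, and contained 27 receptor genes and no other protein-coding gene. The cluster filled 92.8% of this domain. The domain began 74.5 kb before Olfr338 and ended 58.4 kb after Olfr367-ps. Olfr368 (37331749 to 37332732) began 1957 bp beyond that end, a distance below the 2.5 kb step of the borders. The next gene outward, Pdcl, which encodes a phosducin-like regulator of G protein beta and gamma subunits, began 20.3 kb beyond the border. On the low-coordinate side the nearest other gene was Ptgs1, the gene of the prostaglandin synthase COX-1, 43.7 kb outside.

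This domain was far from its neighbours. The interval before it, free of LADs, measured 12.0 Mb, the longest of the 70 intervals between neighbouring LADs on chromosome 2, whose median was 348.7 kb. It held 259 protein-coding genes, or 21.5 per Mb. The interval after the domain measured 1.95 Mb and held 22 genes, or 11.3 per Mb.

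**Figure D1:**
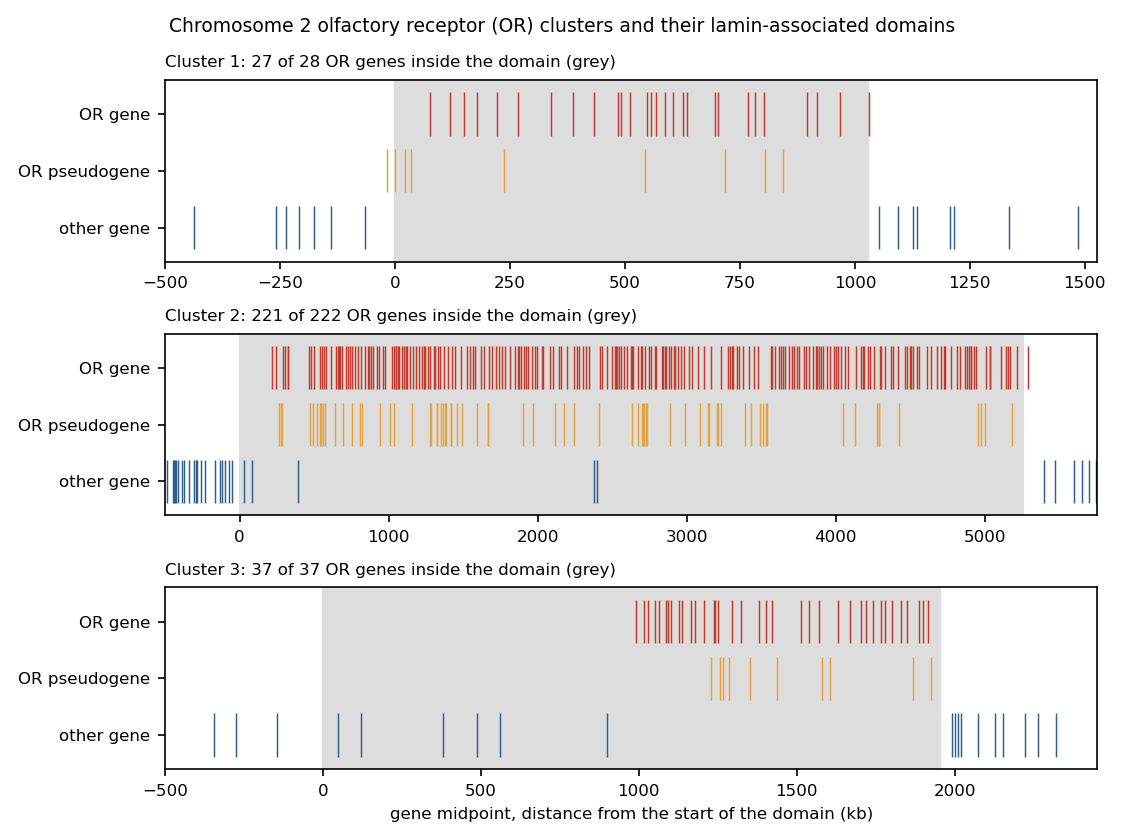
Midpoints of olfactory receptor (OR) genes, OR pseudogenes and other protein-coding genes (vertical lines) in kb from the start of the domain that holds each of the 3 clusters, with the domain in grey. The domain of cluster 1 holds 27 OR genes and no other protein-coding gene, that of cluster 2 holds 221 with 5 other genes, and that of cluster 3 has its 37 OR genes in its high-coordinate part.

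The second cluster (85330967 to 90401674) was the largest, with 222 receptor genes over 5.07 Mb from Olfr987 to Olfr1274, or 43.8 per Mb. A single uninterrupted LAD (85112142 to 90367124, 5.25 Mb), number 3 by length on chromosome 2, held 221 of them. The longest stretch without a member inside the cluster was 140.1 kb, between Olfr995 and Olfr996, and no break in the domain occurred there or anywhere else in the cluster. The domain held 5 other genes. Fads2b, of the fatty acid desaturase family, and Pramel6 and Pramel7, of the Prame family of leucine-rich repeat proteins, lay between receptor genes. Aplnr, the receptor of the peptide apelin, and Lrrc55, a subunit associated with BK potassium channels, lay in the 218.8 kb of the domain that precede Olfr987. Aplnr was 24.2 kb inside the border, and Tnks1bp1, encoding a binding protein of tankyrase 1, ended 39.1 kb outside it.

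At the other end, Olfr1565 was the last member inside, 37.8 kb from the border. Olfr1274 (90400640 to 90401674) lay 33.5 kb outside it. That distance is greater than the border step, but the precision of the border is not known. Ptprj, the gene of a receptor-type tyrosine phosphatase, followed 62.6 kb outside the border, so Olfr1274 was the only protein-coding gene between the border and Ptprj. Of the 4 members assigned only to receptor family MOR228, to which Olfr1274 belongs, the other 3 (Olfr1265, Olfr1269 and Olfr1506) were inside the domain.

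The third cluster (111230853 to 112157007) held 37 receptor genes from Olfr1275 to Olfr1318 over 926.2 kb, and all 37 were in a LAD (110242063 to 112194555) of 1.95 Mb. Here the cluster took up 47.4% of the domain. The domain began 988.8 kb before Olfr1275, and this first part held 6 other genes. They were Bbox1, an enzyme of carnitine synthesis, Fibin, Slc5a12, a lactate transporter, Ano3, of the anoctamin family, Muc15, a mucin, and A26c3. The high-coordinate border lay 37.5 kb beyond Olfr1318, and the first gene outside, Gm52523, lay 34.3 kb past it. The interval before this domain was short, at 107.5 kb, number 62 by length of the 70 on chromosome 2. The interval after it was 340.0 kb, near the median of 348.7 kb.

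The clusters thus sat differently in their domains. Clusters 1 and 2 filled 92.8% and 95.8% of their LADs, while cluster 3 was the distal part of a LAD that it shared with 6 unrelated genes. Receptor genes made up 100%, 97.8% and 86.0% of the protein-coding genes in the 3 domains. Gene density there was 26.3, 43.0 and 22.0 protein-coding genes per Mb. The other 68 LADs of chromosome 2 held 199 genes, or 2.74 per Mb, and the fullest of them held 41.

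**Figure D2:**
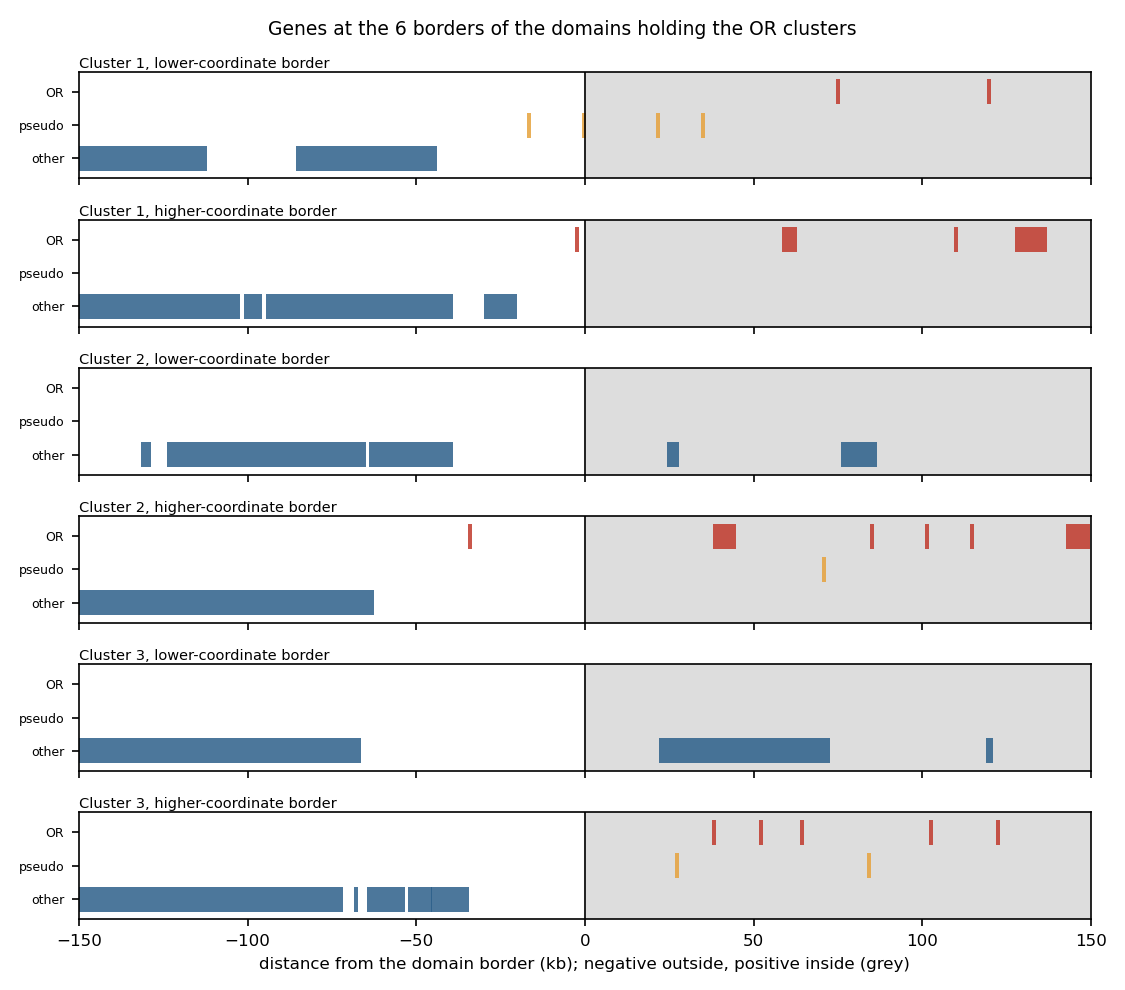
Genes within 150 kb of the 6 borders of these domains, as bars from gene start to gene end (drawn at least 1.2 kb wide), in kb from the border, with the inside of the domain in grey. Olfr368 and Olfr1274 are the OR genes to the left of a border, and parts of other protein-coding genes lie outside each of the 6 borders, at the lower-coordinate border of cluster 3 only from Ccdc34, whose midpoint is past the 107.5 kb interval between domains.

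Genes on either side of the 6 borders were counted next. Within 200 kb outside the 6 borders there were 25 other protein-coding genes, and 2 receptor genes. At the low-coordinate border of the domain of cluster 3 the only such gene was Ccdc34, whose midpoint lies beyond the 107.5 kb interval, and that interval held the midpoint of no protein-coding gene (0). Within 200 kb inside there were 20 receptor genes at 4 of the borders and 4 other genes at the remaining borders, which are the low-coordinate borders of the domains of clusters 2 and 3. Receptor genes came closest to the inner side of a border in the domain of cluster 3, with Olfr1318, and in that of cluster 2, with Olfr1565. No other member inside a domain was less than 50 kb from its border.

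Most members lay far from any border. Measured from the nearer gene end, the median distance of the 285 inside members was 1050 kb, with quartiles of 529.4 and 1807 kb, and 216 of them (75.8%) were more than 500 kb inside. The 210 other chromosome 2 genes in LADs had a median of 167.1 kb, and 33.8% were more than 500 kb inside. Of these 210, 31 were cut by a border and entered with no distance, which lowers their median, while no receptor gene was cut. This distance is bounded by the length of the domain, which was 1.03 to 5.25 Mb for the domains with receptor genes and had a median of 555.0 kb for the others. Olfr1138 was the deepest member, 2625 kb from the nearer border, and in the first cluster it was Olfr3, at 509.9 kb. In the third cluster the first gene, Olfr1275, was the deepest, at 961.2 kb.

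**Figure D3:**
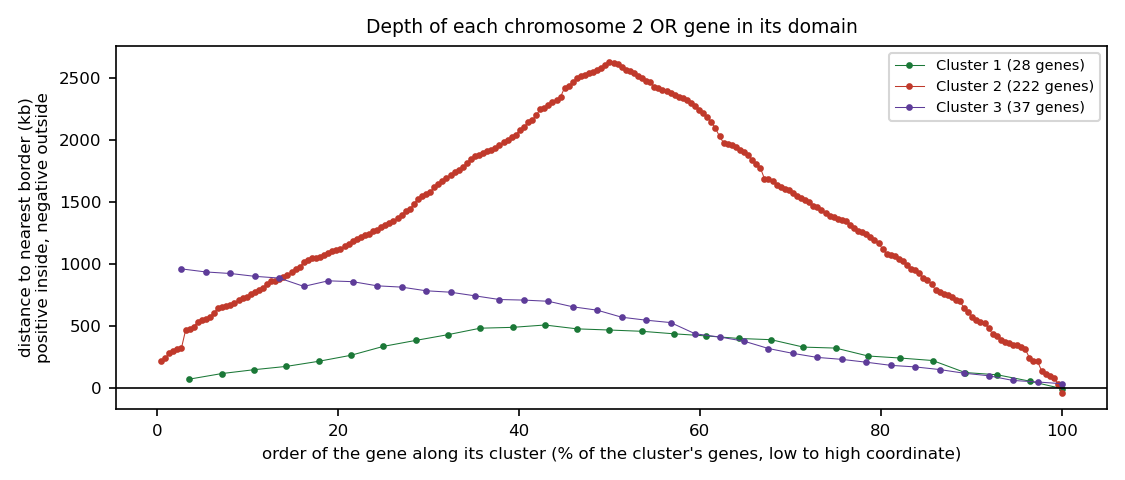
Distance in kb from each of the 287 OR genes to the nearest border of a LAD (positive inside, negative outside) against its order along its cluster. Cluster 2 reaches 2625 kb near its middle, cluster 1 reaches 509.9 kb, and cluster 3 declines from 961.2 kb at its first gene to 37.5 kb at its last.

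Pseudogenes of the same family were placed in the same way. Under the same symbol rule chromosome 2 has 90 further entries that are not protein-coding, all in or beside the 3 clusters, and 88 (97.8%) had their midpoint in a LAD. All 71 pseudogenes of the second cluster and all 10 of the third were inside. Both exceptions were at the low-coordinate end of the first cluster. Olfr334-ps1 lay 16.4 kb outside the domain, and Olfr335-ps was cut by its border. Each end of the first domain thus had a receptor sequence on the outer side.

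The clusters differed in the receptor families they carry. The RefSeq synonyms assign 272 of the 287 members to a single family of the MOR nomenclature, which groups mouse odorant receptors by protein similarity. These were 53 families, numbered from MOR127 to MOR264, and none of them occurred in more than 1 cluster. The first cluster had 8 families, with 14 of its 28 genes in MOR136. The second had 43, the largest being MOR233 with 17 genes. The third had 2, MOR245 with 21 genes and MOR248 with 16. Of 257 adjacent pairs with an assigned family, 152 (59.1%) shared it and the others did not. The longest runs were 14 genes of MOR245 from Olfr1303 to Olfr1318, which reach the high-coordinate end of the third cluster, and 13 of MOR136 from Olfr338 to Olfr350. The second domain spanned the 43 families of its cluster without a break, and its high-coordinate border separated Olfr1274 from the other members of MOR228. Olfr368 is the only member of MOR178 here.

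Most members are short. The median annotated gene length was 945 bp with quartiles of 936 and 1017 bp, the size of an intronless coding exon, and 18 were longer than 5 kb. Olfr1280 was the longest, at 60.2 kb, and overlaps receptor genes listed as separate. Strand was known for 243 members from the RefSeq table of start-site windows. In the second cluster 124 of 186 were on the minus strand (66.7%), and 123 of 161 adjacent pairs (76.4%) had the same strand. In the first cluster 19 of 27 were on the plus strand, and 12 of 25 adjacent pairs (48%) matched. In the third cluster 16 of 30 were on the minus strand, and 18 of 25 adjacent pairs (72%) matched.

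The bases upstream of the members were poor in G and C. Over the 250 bases before the annotated start, the median G+C content was 31.2% in the 243 members with a window, with quartiles of 27.6% and 34.0%. It was 35.2% in 701 olfactory receptor genes of other chromosomes, 46.8% in 3442 other genes in LADs and 58.0% in 12599 other genes outside LADs. A CpG dinucleotide was lacking in 114 member windows (46.9%), against 43.5% of the windows of olfactory receptor genes of other chromosomes, 15.1% of the other genes in LADs and 2.67% of those outside. The windows are not all promoters in the strict sense, because the annotated start was an ATG in 182 of 243 members (74.9%), which leaves no annotated 5′ untranslated region, in 71.9% of olfactory receptor genes of other chromosomes, in 17.2% of other genes in LADs and in 9.77% of all protein-coding genes. In 12 members the annotated start used lies inside the gene.

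**Figure D4:**
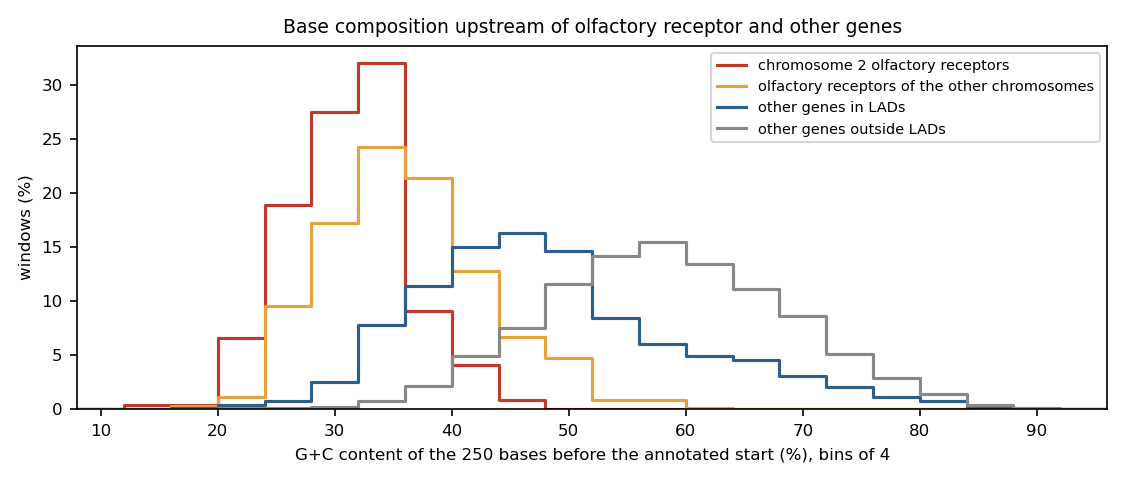
Distribution of G+C content (%, bins of 4) over the 250 bases before the annotated start, as the percentage of windows in each group. Chromosome 2 OR genes (median 31.2%) lie at lower values than other genes in LADs (46.8%) and outside LADs (58.0%).

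Within the family the level varied with position. Members less than 250 kb from the border had a median G+C content of 33.2% (28 windows), those from 250 to 1000 kb had 32.8% (85), and those farther inside, all of the second cluster, had 29.2% (128). At the high-coordinate ends of clusters 1 and 2, the member outside and the last member inside had high values. Olfr368, outside, had 42.0%, above 237 of the 241 windows of inside members, and Olfr367-ps, its neighbour inside, had 43.6%. Olfr1274, outside, had 38.8%, above 226 of them, and Olfr1565, inside the same border, had 46.8%. This did not extend inward in cluster 2, where Olfr1272, Olfr1271 and Olfr142 had 32.4%, 33.6% and 33.2%. Olfr1506, 142.7 kb inside, had 46.8% as well. In cluster 1 the next member inward, Olfr366, had 38.4%. The last member of cluster 3, Olfr1318, had 34.4%. Windows of neighbouring genes may share base composition or a recent duplication, which was not tested, so these values are a description of this chromosome.

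Motifs were searched in the same 250 bases as letters, with no score for site quality. TAATTA, which equals its own reverse complement, occurred in 59 of 243 member windows (24.3%), in 16.0% of other olfactory receptor windows and in 4.53% of all 16985 windows of protein-coding genes. CCCNNGGG, the core of sites for Ebf factors and likewise its own reverse complement, was in 5 member windows (2.06%), against 3.00% of other olfactory receptor windows and 13.2% of all. TATAAA on either strand was in 113 (46.5%), against 36.8% of other olfactory receptor windows and 12.5% of all. In windows of other genes in LADs the shares were 5.98% for TAATTA, 9.24% for CCCNNGGG and 19.3% for TATAAA. By cluster, TATAAA was in 3 of 27 windows of the first (11.1%), in 52.2% of the second and in 43.3% of the third. The first cluster was thus near the share of all windows and below that of other genes in LADs. Over all members the motifs made only of A and T were more frequent than in all windows, and the motif made of G and C was less frequent. Member windows were also poorer in G and C, and the part of composition in these shares was not tested. Median G+C content was 33.2% in the first cluster and 32.2% in the third, where the shares with TATAAA differed. TAATTA was found in 5 of 27 windows of the first cluster, 45 of 186 of the second and 9 of 30 of the third.

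Olfactory receptor genes of other chromosomes were mostly in LADs too, but not everywhere. Of the 822 within the spans, 696 (84.7%) were in a LAD. On chromosome 9 all 130 were inside, and on chromosome 7 it was 233 of 239 (97.5%). On chromosome 11 it was 31 of 83 (37.3%). Clusters of at least 20 members under the same 1 Mb rule numbered 12 outside chromosome 2. Of these, 8 had LAD members in a single domain only, as all 3 clusters of chromosome 2 did, 3 were spread over several LADs (at most 3), and 1 had none. That 1 lies on chromosome 11 (58454915 to 59614225) and has 24 members. The difference between chromosomes was not tested, because clusters are few and genes within them are not independent.

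**Figure D5:**
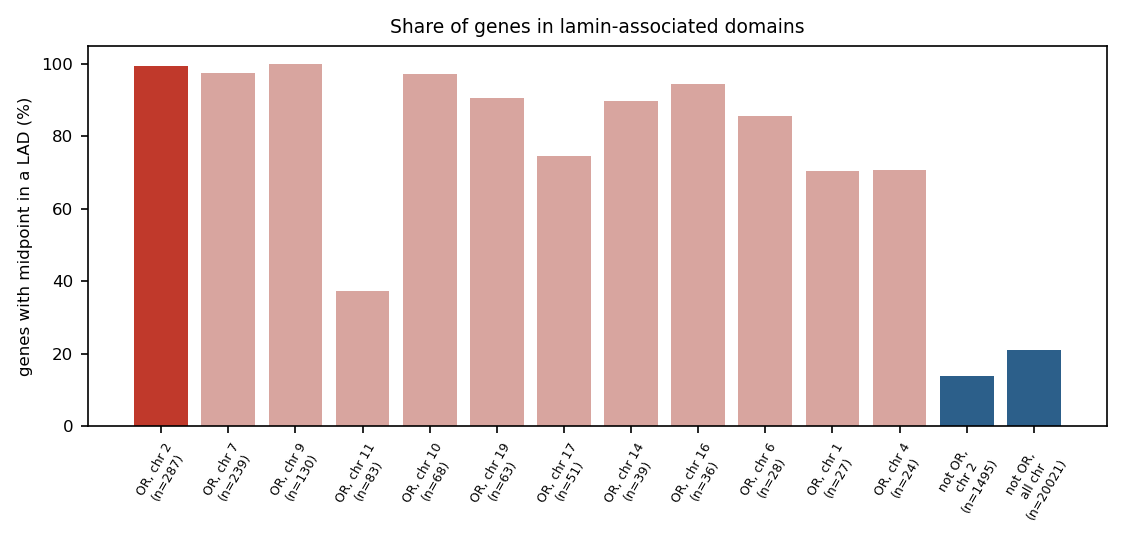
Percentage of genes with their midpoint in a LAD, for olfactory receptor (OR) genes of each chromosome with at least 20 of them and for other protein-coding genes, with the number of genes in brackets. Chromosome 2 reaches 99.3%, chromosome 11 is the lowest at 37.3%, and other genes are at 14% on chromosome 2.

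Of 32 genes for odor transduction, receptor trafficking, receptor gene choice and lamina or heterochromatin proteins, 4 (12.5%) had their midpoint in a LAD, against 21.1% of protein-coding genes that are not olfactory receptors. With 32 genes this is a small difference in count, and nothing is read from it. Among 11 genes of the transduction pathway, Pde1c, a calmodulin-dependent phosphodiesterase, was inside, and the other 10, among them Adcy3, the adenylyl cyclase of olfactory cilia, and Omp, the olfactory marker protein, were outside. Cnga4, a subunit of the olfactory cyclic nucleotide-gated channel, was 15.2 kb from a border on chromosome 7. Among 5 trafficking genes, Ric3, a chaperone of acetylcholine receptors, was inside, while Rtp1 and Rtp2, which bring receptors to the cell surface, were 3380 and 2934 kb from the nearest border. Among 10 genes of receptor choice, Ebf1 (cut by a border) and Ebf3 (1451 kb inside) were in a LAD. Lhx2, a homeodomain factor needed for receptor expression, lies on chromosome 2 itself, 907.6 kb from a LAD. None of the 6 lamina and heterochromatin genes, among them Lbr, Lmnb1 and Cbx5, was in a domain.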

How the data were processed

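Lamin B1 CUT&RUN libraries were made from mouse embryonic fibroblasts. Reactions of 500000 whole cells were bound to beads, per the labels, with antibody at 1 to 100 and digestion for 2 hours in 2 mM calcium chloride. The authors deposited 1 list of domains with start and end positions in base pairs. Its score column, as deposited, held 0 in every line and was not used. Build mm10 and Bowtie2 are named in the submitters' processing notes, and the caller, its threshold and the use of IgG or spike-in DNA are not given in the sources used here. That the list pools both Lamin B1 replicates, and wild type, rest on its name.

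Gene positions came from the RefSeq table of GRCm38.p6 and strand and upstream windows from its start-site table, which matched 243 of 287 members, using the first window of the 2 members that had 2. A gene was counted in a LAD by its midpoint. Positions are counted from 1. Analysis used Python 3.11.15 with numpy 2.4.6 and pandas 2.3.3, and placement was tested on simulated data. The genes named were those outside or cut by a border, at cluster ends, nearest to borders, deepest, between or beside members, and the list of 32; genes named by length, strand, family or pseudogene status were chosen after their values were seen. Members and lists were chosen with earlier results of these data known. Alternatives are given in the closing section.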

Additional observations from a re-analysis of the deposited data

How the results depend on the processing

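Of 64 recomputed values, 55 stayed within the exact 95% binomial interval of the main share, or, for the number of clusters, did not change from 3 with neighbours up to 250 kb, 500 kb or 2 Mb apart. That interval describes counting only, since genes of a cluster are not independent. Several settings could not move the member shares, because no member is cut by a border and the domains with members exceed 500 kb. The cluster shares also repeat parts of the share of all members, so the tally is no measure of robustness. The share of members in LADs ran from 98.6% with all domains shortened by 50 kb at each end, which left out Olfr1565 and Olfr1318, to 100% with all extended by 50 kb, which took in Olfr368 and Olfr1274 and likewise gave 100% for the first and the second cluster. Extension by 2.5 kb, chosen after seeing the data, took in Olfr368 and gave 100% for the first cluster. Other chromosome 2 genes moved from 14% to 12.0% with whole genes, 11.8% with domains of at least 500 kb, 16.9% with domains joined at 250 kb, 11.8% with shortening and 17.6% with extension by 50 kb. With the annotated start, 241 of 243 members were inside, and with pseudogenes 373 of 377.

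No paired analysis was possible because only 1 merged set of positions was used, with no value for a replicate. Leaving out a replicate could not be run either. The depth is unknown, which limits how firmly borders near Olfr368 and Olfr1274 can be placed.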
